A study of Mus musculus with 12 samples.

Results

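*Siglech*, *Bst2*, *Tcf4*, *Spib*, *Klk1*, *Ly6d*, *Pacsin1*, *Cox6a2*, *Bcl11a* and *Ccr9* are 10 genes known from plasmacytoid dendritic cells (pDCs), and they are described here in RNA-seq libraries of small intestine DCs. The 10 genes were named as a list and matched by symbol to the Ensembl identifiers of the count tables, which hold 53801 gene identifiers. All 10 had 5 or more counts in at least 1 library and so were among the 20580 genes fitted. The list was chosen by values measured in these libraries, with the 4 groups compared replicate by replicate, and which of these values were used is not recorded. Differences among the groups are therefore given for the 10 genes as descriptions. Where the number of the 10 past the limits of a fit over all genes is given, nothing is read from it.

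The libraries came from CD103+CD11b- and CD103-CD11b+ DCs, which were sorted from the CD45+CD64-CD11c+MHC-II+ cells of the small intestine of wild-type mice (WT) and of *Cbfb* F/F: CD11c-Cre mice, labelled Cbfb-cKO (cKO). Cbfβ is the partner with which Runx transcription factors form heterodimers. The CD11c-Cre transgene deletes the floxed gene in CD11c-expressing cells and, by the study's own account, to some extent also in T cells. There were 3 libraries from 3 mice in each of the 4 groups, 12 in all. The strain is given as mixed background in every group. The study gives an age for its analyses of gut DC differentiation. For the sequenced mice the age is not stated in the sources used here, nor whether the WT mice carried the Cre transgene. The antibodies listed for the sort did not include Siglec-H, Bst2 or B220, the usual surface markers of pDCs. The study sequenced these cells to ask how the expression profile of each subset differs without Cbfβ.

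Between 2161929 and 5863484 reads per library were counted on genes. *Cbfb* itself, counted over the whole gene, was at 199 to 228 CPM in WT and 215 to 290 CPM in cKO CD103+CD11b- DCs, and at 161 to 217 CPM in WT and 170 to 273 CPM in cKO CD103-CD11b+ DCs. These ranges overlap, so the level of the targeted gene did not separate the genotypes and did not check the labels. The markers of the gate were present in every library. The summed level of *Itgax*, *Flt3*, *Zbtb46*, *H2-Aa*, *Cd74* and *Ptprc* was 3220 to 6451 CPM over the 12 libraries. Of 6 cDC1 genes, all 6 were lower in CD103-CD11b+ than in CD103+CD11b- DCs in both genotypes in the quasi-likelihood test of edgeR (p adjusted after Benjamini and Hochberg). This test called 18.8% of all genes in either direction between the subsets of WT mice and 16.1% between those of cKO mice.

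pDCs are DCs specialised in making type I interferon after they sense nucleic acids through endosomal Toll-like receptors. The E protein E2-2, encoded by *Tcf4*, is required to form and keep this cell type, and it acts against Id2, which favours conventional DCs. Spi-B and Bcl11a are transcription factors of the same programme that B cells use too, Siglec-H is a surface receptor found mostly on mouse pDCs, and the chemokine receptor Ccr9 guides pDCs to the small intestine. pDCs carry less CD11c and MHC-II than conventional DCs. Several of these genes are not restricted to pDCs. *Spib*, *Bcl11a*, *Ly6d* and *Tcf4* are also expressed by B-lineage cells, *Ccr9* by intestinal T cells and plasma cells, and *Bst2* is induced by interferon in many cells.

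Because the 10 genes were compared after loss of a Runx partner, the 250 bases before the RefSeq start site (GRCm38.p6) were searched for the Runx core TGTGGT on both strands. Such windows were at hand for 7 of the 10 genes, and those of *Tcf4*, *Ly6d* and *Cox6a2* were not analysed here. The core was found in 2 of the 7 windows, those of *Siglech* and *Pacsin1*, against 14.0% of 32851 promoter windows of the same length. It begins 115 bases before the start site of *Siglech*, where it reads on the opposite strand, and 178 bases before that of *Pacsin1*. An interferon response element of the form GAAA, any 2 bases and GAAA again, present in 2.98% of all windows, was found in 1 of the 7, that of *Bst2*, as a pair of overlapping matches whose first begins 130 bases before the start site. The E-box CANNTG, the letters E proteins such as E2-2 bind, was in 6 of the 7 windows and in 66.2% of all windows. The ETS core GAGGAA, the type Spi-B binds, was in 0 of the 7 and in 23.3% of all. A match of letters is no evidence that a factor binds there. The 3 windows with a Runx core or the interferon element are shown 5′ to 3′ on the strand of the gene, with those letters in capitals: *Siglech* at chr7:55767934-55768183 (+), *Pacsin1* at chr17:27684989-27685238 (+) and *Bst2* at chr8:71537473-71537722 (-).
Siglech: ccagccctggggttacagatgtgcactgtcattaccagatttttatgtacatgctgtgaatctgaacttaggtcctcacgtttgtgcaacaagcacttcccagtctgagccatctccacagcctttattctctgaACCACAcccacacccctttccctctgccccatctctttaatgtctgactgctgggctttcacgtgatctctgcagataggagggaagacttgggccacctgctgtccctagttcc
Pacsin1: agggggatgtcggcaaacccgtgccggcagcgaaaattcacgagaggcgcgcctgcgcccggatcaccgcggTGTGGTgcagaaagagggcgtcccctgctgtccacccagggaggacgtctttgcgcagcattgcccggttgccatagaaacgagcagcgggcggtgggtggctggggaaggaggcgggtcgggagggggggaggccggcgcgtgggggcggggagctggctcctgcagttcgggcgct
Bst2: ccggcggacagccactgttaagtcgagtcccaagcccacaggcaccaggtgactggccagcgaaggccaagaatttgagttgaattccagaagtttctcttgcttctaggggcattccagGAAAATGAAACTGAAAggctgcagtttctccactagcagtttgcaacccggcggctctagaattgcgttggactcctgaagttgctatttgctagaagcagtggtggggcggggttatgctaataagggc

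In WT mice 9 of the 10 pDC genes had a higher mean in CD103+CD11b- than in CD103-CD11b+ DCs, and in the CD103+CD11b- subset each of the 10 had a lower mean in cKO than in WT mice. The largest differences between the genotypes in this subset, in fold, were those of *Klk1* (10.6-fold), *Spib* (4.56-fold), *Siglech* (3.5-fold) and *Ly6d* (3.49-fold). In CD103-CD11b+ DCs no such common direction was seen: 4 of the 10 had a fitted level above WT and 6 below. This split is not fixed, since leaving out 1 library changed the sign for *Siglech*, *Klk1*, *Ly6d* or *Bcl11a*. Without replicate 1 of the WT CD103-CD11b+ libraries, the log2 fold changes of *Ly6d* and *Bcl11a* became 0.08 and 0.30. The values below are counts scaled to the same library total after TMM normalization (CPM). In bulk libraries, fewer pDCs among the sorted cells and less RNA of a gene per cell cannot be told apart.

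**Figure D1:**
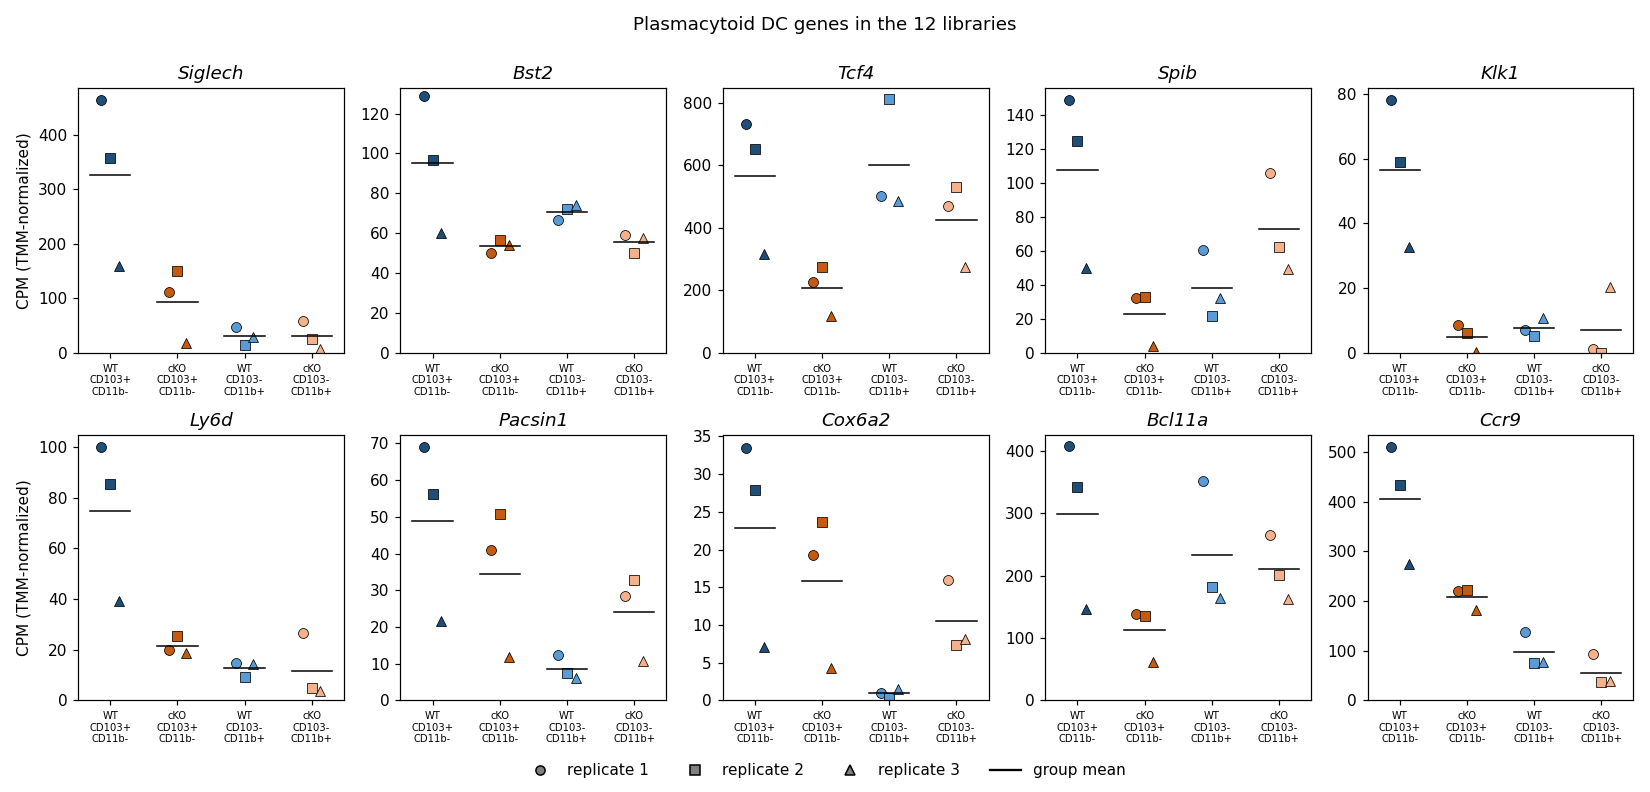
CPM (linear axes that start at 0, a scale of its own for each gene) of the 10 pDC genes in the 12 libraries, by group, where symbols mark the replicate number and bars the group means. *Siglech* lay at 160 to 464 CPM in WT CD103+CD11b- DCs, above every library of the other 3 groups, and replicate 3 was the lowest of the WT CD103+CD11b- libraries for each of the 10 genes.

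Among the receptors and surface proteins, *Siglech* (ENSMUSG00000051504, chromosome 7, 55768178 to 55778925, GRCm38) was at 464, 358 and 160 CPM in the 3 WT CD103+CD11b- libraries and at 111, 150 and 18 CPM in the cKO ones. In CD103-CD11b+ DCs it was at 47.2, 14.3 and 28.8 CPM in WT and at 59, 25.7 and 6.63 CPM in cKO mice. All 3 WT CD103+CD11b- libraries were above all 3 of each other group, while the other 3 groups overlapped one another. The log2 fold change of cKO against WT was -1.81 ± 0.77 (SE) in the former subset and 0.05 ± 0.79 in the latter. *Ccr9* (ENSMUSG00000029530, chromosome 9, 123678439 to 123784330) was at 510, 433 and 275 CPM in WT and 221, 222 and 181 CPM in cKO CD103+CD11b- DCs, and at 138, 74.6 and 77.4 CPM in WT and 92.9, 36.4 and 38.8 CPM in cKO CD103-CD11b+ DCs. Its 6 CD103+CD11b- libraries all lay above the 6 of the other subset. The exons of *Ccr9* share 2223 bases with *Slc6a20a* and other genes, and the counting was without strand, so its counts are uncertain to that extent.

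*Ly6d* (ENSMUSG00000034634, chromosome 15, 74762056 to 74763620), a small surface protein of pDC and B-cell precursors, was at 99.8, 85.3 and 39 CPM in WT and at 19.7, 25.4 and 18.8 CPM in cKO CD103+CD11b- DCs. In CD103-CD11b+ DCs its values were 14.9, 9.33 and 14.3 CPM in WT and 26.7, 5 and 3.57 CPM in cKO mice. The genotypes did not overlap in the former subset, with a log2 fold change of -1.80 ± 0.60 (SE), and overlapped in the latter. *Bst2* (ENSMUSG00000046718, chromosome 8, 71534255 to 71537456), whose product tethers enveloped viruses to the cell surface, had the narrowest spread of the 10 genes over the groups. It was at 129, 96.6 and 60.1 CPM in WT and 49.9, 56.4 and 54 CPM in cKO CD103+CD11b- DCs, and at 66.4, 72 and 74.2 CPM in WT and 59, 50.2 and 57.6 CPM in cKO CD103-CD11b+ DCs. *Bst2* was lower in all 3 cKO than in all 3 WT libraries in both subsets, with log2 fold changes of -0.83 ± 0.22 and -0.35 ± 0.22 (SE). The summed level of 12 interferon-stimulated genes counted beside it was 422 to 488 CPM in WT and 541 to 588 CPM in cKO CD103+CD11b- DCs, and 513 to 614 CPM in WT and 836 to 904 CPM in cKO CD103-CD11b+ DCs. In the latter subset 10 of the 12 had a log2 fold change above 0, and 8 had all 3 cKO libraries above all 3 WT libraries. By edgeR's test 2 of the 12 rose in cKO mice (1.61% of all genes called), among them *Isg15* (log2 fold change 1.35 ± 0.28, SE, adjusted p = 0.04).

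Among the transcription factors, *Tcf4* (ENSMUSG00000053477, chromosome 18, 69343356 to 69689079) was at 733, 651 and 318 CPM in WT and 227, 275 and 118 CPM in cKO CD103+CD11b- DCs. In CD103-CD11b+ DCs it was at 503, 814 and 485 CPM in WT and 469, 531 and 274 CPM in cKO mice, so that WT mice had about the same level in both subsets (log2 fold change between subsets 0.08 ± 0.38, SE). The lowest WT library of CD103+CD11b- DCs was above the highest cKO library, and the log2 fold change was -1.45 ± 0.39. *Bcl11a* (ENSMUSG00000000861, chromosome 11, 24078056 to 24174123), a zinc finger protein upstream of *Tcf4* in pDCs, followed it: 408, 343 and 147 CPM in WT and 139, 136 and 62.2 CPM in cKO CD103+CD11b- DCs, and 352, 182 and 164 CPM in WT and 266, 201 and 163 CPM in cKO CD103-CD11b+ DCs. The genotypes were apart in the former by a narrow margin, 147 against 139 CPM, and overlapped in the latter. *Bcl11a* overlaps antisense transcripts, and *4930538E20Rik* shares 316 exon bases with it.

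*Spib* (ENSMUSG00000008193, chromosome 7, 44525993 to 44532071), which encodes Spi-B, a factor of the ETS family, was at 149, 125 and 50 CPM in WT and at 32.2, 33.2 and 3.91 CPM in cKO CD103+CD11b- DCs. In CD103-CD11b+ DCs the order of the means was the other way round, with 60.5, 21.7 and 32.3 CPM in WT and 106, 62.6 and 49.5 CPM in cKO mice. The genotypes were apart in the first subset and overlapped in the second, where the lowest cKO library was below the highest WT library. The log2 fold changes were -2.19 ± 0.66 and 0.92 ± 0.63 (SE), and their difference was 3.11 ± 0.91. Of 10 B-cell genes, 9 also had a log2 fold change above 0 in cKO CD103-CD11b+ DCs. *Ebf1* went the other way, with a mean of 134 CPM in WT and 54.6 CPM in cKO CD103-CD11b+ DCs. The sum of the 10 had a mean of 225 and 435 CPM there, so *Ebf1* was a large part of the WT sum. The summed level was 146 to 343 CPM in WT and 186 to 708 CPM in cKO CD103-CD11b+ DCs, against 33.6 to 75.5 CPM in CD103+CD11b- DCs of both genotypes, and none of the 10 was at 0 in all 3 libraries of a group. *Ms4a1* and *Cd22* rose in cKO CD103-CD11b+ DCs by edgeR's test (log2 fold changes 3.72 ± 0.47 and 2.0 ± 0.26, adjusted p = 0.00455 and 0.00521). The sums overlapped between the genotypes, and in WT mice they were lowest, at 146 CPM, in the library in which *Spib* was highest. In cKO mice they were 708, 411 and 186 CPM in replicates 1, 2 and 3, in the same order as *Spib*. The part of B cells in the *Spib* values was not tested.

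Among the other products, *Klk1* (ENSMUSG00000063903, chromosome 7, 44225360 to 44229618), a tissue kallikrein, showed the steepest difference between genotypes in CD103+CD11b- DCs. It was at 78, 58.8 and 32.8 CPM in WT and at 8.65, 6.1 and 0.391 CPM in cKO CD103+CD11b- DCs, where the last value stands for 1 count. In CD103-CD11b+ DCs it was at 7.05, 5.33 and 10.8 CPM in WT and at 1.12, 0 and 20.4 CPM in cKO mice, and the 20.4 CPM of replicate 3 made up nearly all of the cKO mean. In replicate 2 of the latter 3 counts are worth 0.714 CPM, so the 0 there allows a level of up to 0.714 CPM. *Klk1* belongs to a cluster of near-identical *Klk1b* paralogues, so its counts are uncertain to that extent. *Pacsin1* (ENSMUSG00000040276, chromosome 17, 27655509 to 27711482), an adaptor of membrane traffic, was at 69.1, 56.3 and 21.5 CPM in WT and 41.1, 50.8 and 11.7 CPM in cKO CD103+CD11b- DCs, and at 12.3, 7.33 and 6.11 CPM in WT and 28.5, 32.8 and 10.7 CPM in cKO CD103-CD11b+ DCs. Its groups overlapped between genotypes in both subsets, with log2 fold changes of -0.48 ± 0.57 and 1.48 ± 0.60 (SE).

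*Cox6a2* (ENSMUSG00000030785, chromosome 7, 128205435 to 128206387, minus strand), a subunit of cytochrome c oxidase known from muscle and pDCs, was at 33.5, 27.9 and 7.11 CPM in WT and 19.3, 23.7 and 4.3 CPM in cKO CD103+CD11b- DCs. In CD103-CD11b+ DCs it was at 0.979, 0.333 and 1.45 CPM in WT, from 1 to 5 counts a library, and at 15.9, 7.38 and 8.16 CPM in cKO mice. The genotypes overlapped in the first subset, while in the second every cKO library was above every WT library, with a log2 fold change of 3.45 ± 0.82 (SE). *Cox6a2* lies wholly within *Itgad* (128154376 to 128223816, plus strand), which encodes the integrin CD11d, and 70 of its exon bases are shared. Reads were counted without strand. *Itgad* was at 9.2, 5.33 and 7.27 CPM in WT and at 157, 172 and 187 CPM in cKO CD103-CD11b+ DCs, and it rose in cKO mice in both subsets by edgeR's test (log2 fold change 4.54 ± 0.27, adjusted p = 7.9e-05, in CD103-CD11b+ DCs and 1.35 ± 0.24, adjusted p = 0.0304, in CD103+CD11b- DCs). The counts of *Cox6a2* were 10.1%, 4.29% and 4.37% of those of *Itgad* in the cKO CD103-CD11b+ libraries and 10.6%, 6.25% and 20% in the WT ones. In WT CD103+CD11b- DCs they were 148%, 147% and 55%. The part of *Itgad* reads in the *Cox6a2* counts was not tested, and without strand the genes cannot be told apart where they overlap.

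**Figure D2:**
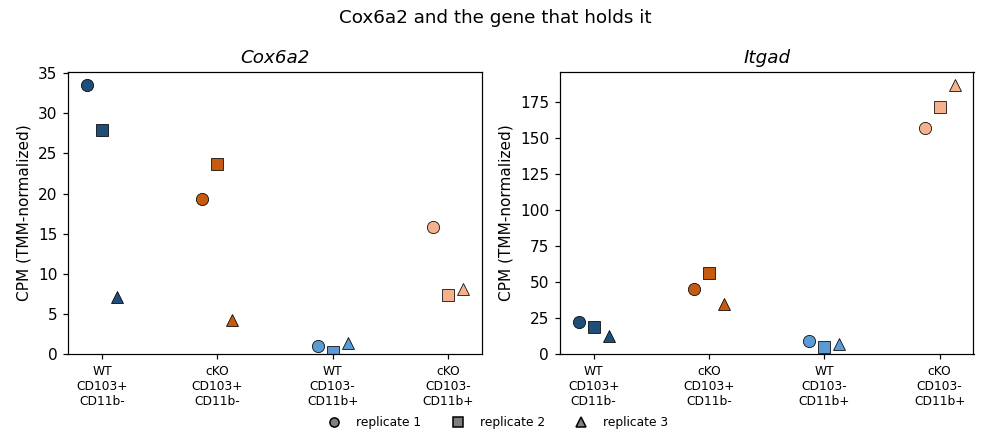
CPM (linear axes that start at 0) of *Cox6a2* (left) and *Itgad* (right) in the 12 libraries by group, with 1 point per library and its replicate number as the symbol. In cKO CD103-CD11b+ DCs, *Cox6a2* lay at 7.38 to 15.9 CPM where *Itgad* lay at 157 to 187 CPM, whereas in WT CD103+CD11b- DCs *Cox6a2* reached 33.5 CPM with *Itgad* at 12.9 to 22.6 CPM.

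Levels can be set beside each other between genes only per exon length. In WT CD103+CD11b- DCs, *Bst2* (105 CPM per kb), *Ly6d* (100 CPM per kb) and *Siglech* (96.8 CPM per kb) were the highest, *Klk1* (52.5), *Ccr9* (39.6), *Spib* (37.6) and *Cox6a2* (33.6 CPM per kb) followed, and *Bcl11a* (22.7), *Tcf4* (20.7) and *Pacsin1* (7.5 CPM per kb) were the lowest. The SD between the 3 libraries of *Siglech* was 45.7 CPM per kb, and the ranges of the 3 libraries overlapped between all neighbours in this order but the last, where *Pacsin1* reached at most 10.6 and *Tcf4* was at 11.6 CPM per kb or more. In cKO CD103-CD11b+ DCs, *Bst2* was still at 61.6 CPM per kb while *Siglech* was at 9.

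For cKO against WT in CD103+CD11b- DCs, all 10 log2 fold changes were below 0, from -3.40 ± 1.16 (SE) for *Klk1* to -0.48 ± 0.57 for *Pacsin1*, with a median of -1.43 against -0.02 over all genes fitted. For 8 of the 10, all but *Pacsin1* and *Cox6a2*, all 3 cKO libraries were below all 3 WT libraries, which was so for 10.6% of all genes. A gene was called at a false discovery rate under 0.05 and a fold change over 1.3, and 0 of the 10 were called by edgeR's quasi-likelihood test, which called 1.02% of all genes in this comparison. At an unadjusted p under 0.05 there were 8 of the 10 (10.5% of all genes). DESeq2 called 4 (*Bcl11a*, *Bst2*, *Spib* and *Tcf4*; 3.20% of all genes) and edgeR's likelihood ratio test called 3 (*Bcl11a*, *Spib* and *Tcf4*; 2.91% of all genes). Without replicate 3 of the WT CD103+CD11b- libraries, the quasi-likelihood test called 2, *Bst2* and *Tcf4* (1.18% of all genes). Nothing is read from these counts about the 10 genes, which were chosen with such values in view.

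In CD103-CD11b+ DCs the 10 log2 fold changes of cKO against WT ran from -0.78 ± 0.37 (SE) for *Ccr9* to 3.45 ± 0.82 for *Cox6a2*, with a median of -0.11 against -0.06 over all genes. The quasi-likelihood test called 0 of the 10 (1.61% of all genes) with 2 at an unadjusted p under 0.05 (17.4% of all genes). *Cox6a2* was the single gene called higher by DESeq2 (5.54% of all genes), by the likelihood ratio test (5.12% of all genes) and without replicate 3 of either CD103+CD11b- group (1.58% of all genes without that of WT and 1.73% without that of cKO mice). The difference between these cKO effects, that in CD103-CD11b+ minus that in CD103+CD11b- DCs, was above 0 for all 10, with a median of 1.79 against -0.01 over all genes. It fell below 0 for *Klk1* (-0.28) without replicate 3 of the cKO CD103-CD11b+ libraries, and for *Ccr9* without replicate 1 of these libraries (-0.40) or without replicate 1 of the WT CD103+CD11b- libraries (-0.01). It ran from 0.19 ± 0.52 for *Ccr9* to 3.95 ± 1.04 for *Cox6a2*, and 0 of the 10 were called by the quasi-likelihood test (0.651% of all genes), with 3 at an unadjusted p under 0.05 (11.1% of all genes). DESeq2 and the likelihood ratio test both called *Cox6a2* and *Spib*, against 2.45% and 2.01% of all genes. The replicate block within genotype, which pairs the libraries of the subsets by their replicate number, called *Pacsin1* (1.59% of all genes).

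**Figure D3:**
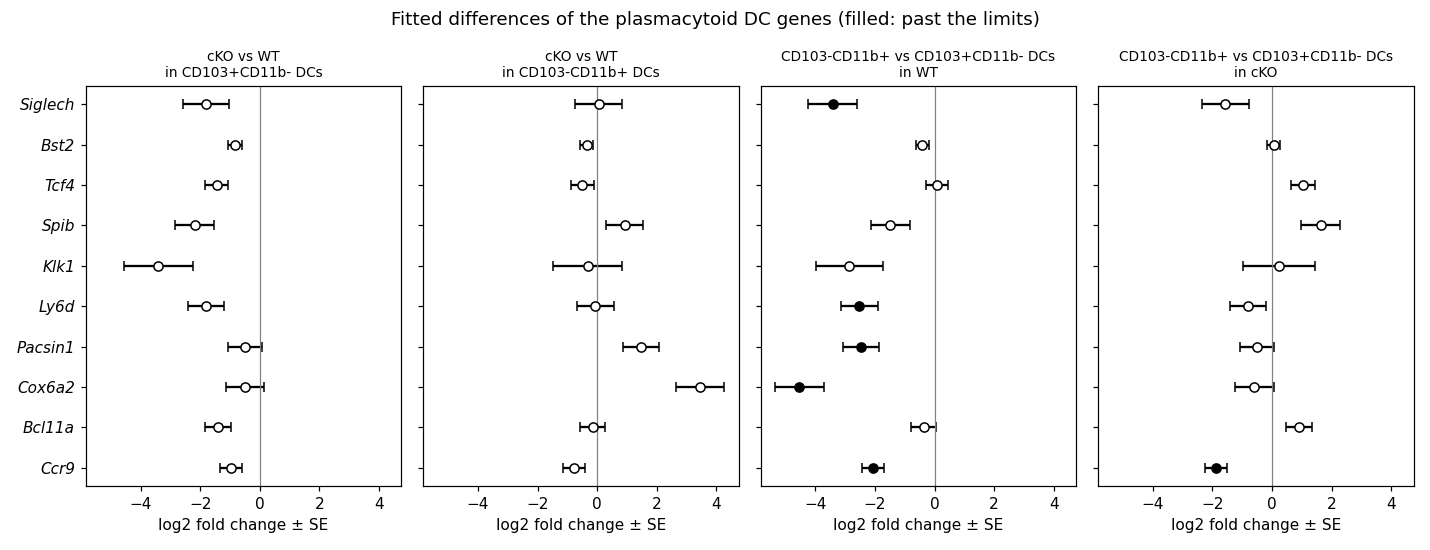
Log2 fold change with its SE (horizontal bars) of the 10 pDC genes in 4 comparisons fitted by edgeR to the 12 libraries, where filled points mark genes past the limits of false discovery rate and fold change. All 10 lie below 0 for cKO against WT in CD103+CD11b- DCs with 0 filled, and 5 of 10 are filled for the subsets in WT mice.

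Between the subsets of WT mice, 9 of the 10 genes were lower in CD103-CD11b+ than in CD103+CD11b- DCs and *Tcf4* was at about the same level. *Cox6a2* differed the most (log2 fold change -4.54 ± 0.82, SE, with 1 to 5 counts per CD103-CD11b+ library), followed by *Siglech* (-3.42 ± 0.83), *Klk1* (-2.86 ± 1.12), *Ly6d* (-2.53 ± 0.62), *Pacsin1* (-2.48 ± 0.61) and *Ccr9* (-2.07 ± 0.38). For *Bst2*, *Bcl11a* and *Spib* the subsets overlapped. For 6 of the 10 all 3 CD103-CD11b+ libraries were below all 3 CD103+CD11b- libraries, which was so for 16.7% of all genes. The test called 5 of the 10, *Siglech*, *Ly6d*, *Pacsin1*, *Cox6a2* and *Ccr9*, all lower, where 18.8% of all genes were called in either direction and 7.00% lower. This count was 2 without replicate 1 (8.13% of all genes) or without replicate 2 (6.88%) of the WT CD103+CD11b- libraries, 2 without replicate 2 (10.9%) and 3 without replicate 3 (13.1%) of the WT CD103-CD11b+ libraries. The list was chosen with these values in view, so nothing is read from the counts, and the comparison shares its CD103+CD11b- libraries with that of cKO and WT above.

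Between the subsets of cKO mice the log2 fold changes of the 10 genes had a median of -0.23, where that in WT mice was -2.27; over all genes the medians were 0.11 and 0.07. *Ccr9* was called lower in CD103-CD11b+ than in CD103+CD11b- DCs (log2 fold change -1.88 ± 0.38, SE), the single call among the 10 where 16.1% of all genes were called. *Spib* was higher there in all 3 libraries (1.63 ± 0.65), as was *Bcl11a* (0.90 ± 0.43), and *Tcf4* had a log2 fold change of 1.04 ± 0.39. *Siglech* was at -1.57 ± 0.79 with overlapping groups, and at -2.49 to -1.05 when 1 library was left out. All 10 B-cell genes were also higher in CD103-CD11b+ than in CD103+CD11b- DCs of cKO mice, with a median log2 fold change of 3.75. The quasi-likelihood test called 6 of them (16.1% of all genes). The part of B cells in the values of *Spib*, *Bcl11a* and *Tcf4* was not tested. These values are from the fit without a block. Whether the replicate numbers pair the cKO libraries of the subsets is not stated in the sources. If they are taken to do so, with the replicate block within genotype 5 of the 10 were called (21.5% of all genes): *Bcl11a*, *Spib* and *Tcf4* higher and *Ccr9* and *Siglech* lower. Without replicate 1 of the cKO CD103-CD11b+ libraries 2 were called (12.1%).

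Within CD103+CD11b- DCs the libraries of replicate 3 stood apart in these genes. In WT mice replicate 3 was the lowest library for 10 of the 10 genes, with a median deviation from the group mean of -0.86 on the log2 scale against 0.02 over all genes. In cKO mice replicate 3 was the lowest for 9 of the 10, with a median deviation of -1.02 against -0.06. *Spib*, for example, was at 3.91 CPM there against 32.2 and 33.2 CPM in the other two libraries. Other genes known from pDCs, 25 that were listed with earlier results of these data known, were lowest in the same libraries, 25 of the 25 in WT and 20 of the 25 in cKO mice. Of the 7 cDC2 genes, *Sirpa*, *Cd209a*, *Clec10a* and *Mgl2* were lowest there in both genotypes, for example *Sirpa* with 137 against 283 and 214 CPM in WT and 5.08 against 47.3 and 40.3 CPM in cKO mice. *Irf4* and *Itgam* were lowest there in neither, and *Klf4* was highest there, with 157 against 77.6 and 74.1 CPM in WT and 209 against 63.5 and 74 CPM in cKO mice. The summed level of the 7 in replicate 3 was the lowest of its group in WT mice (523 CPM) and the highest in cKO mice (293 CPM). The sums of the 6 genes of the DC gate and of the 6 cDC1 genes were likewise lowest in replicate 3 in WT mice (3220 and 2192 CPM) and highest there in cKO mice (4781 and 3508 CPM). The B-cell, plasma cell and macrophage sums were highest in replicate 3 in WT mice (75.5, 320 and 33.5 CPM), while in cKO mice they were 33.6, 370 and 14.1 CPM there, lowest for B cells, highest for plasma cells and between the other libraries for macrophages. The T-cell, epithelial and interferon-stimulated sums were lowest in replicate 3 in both genotypes. They were 127, 62.7 and 422 CPM there in WT and 55.5, 25.4 and 541 CPM in cKO mice. In CD103-CD11b+ DCs no library was the lowest for more than 6 of the 10 genes. The WT replicate 3 library was the deepest of its group and the cKO one the shallowest. Without replicate 3 of every group, a setting chosen after the values had been seen, 2 of the 10 (*Klk1* and *Tcf4*) were called lower in cKO than in WT CD103+CD11b- DCs (0.976% of all genes), 1 (*Cox6a2*) was called higher in cKO CD103-CD11b+ DCs (0.946%), and 8 were called lower in CD103-CD11b+ than in CD103+CD11b- DCs of WT mice (19.4%). Between the subsets of cKO mice it called 3 (15.5%), with *Tcf4* higher and *Ccr9* and *Klk1* lower.

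**Figure D4:**
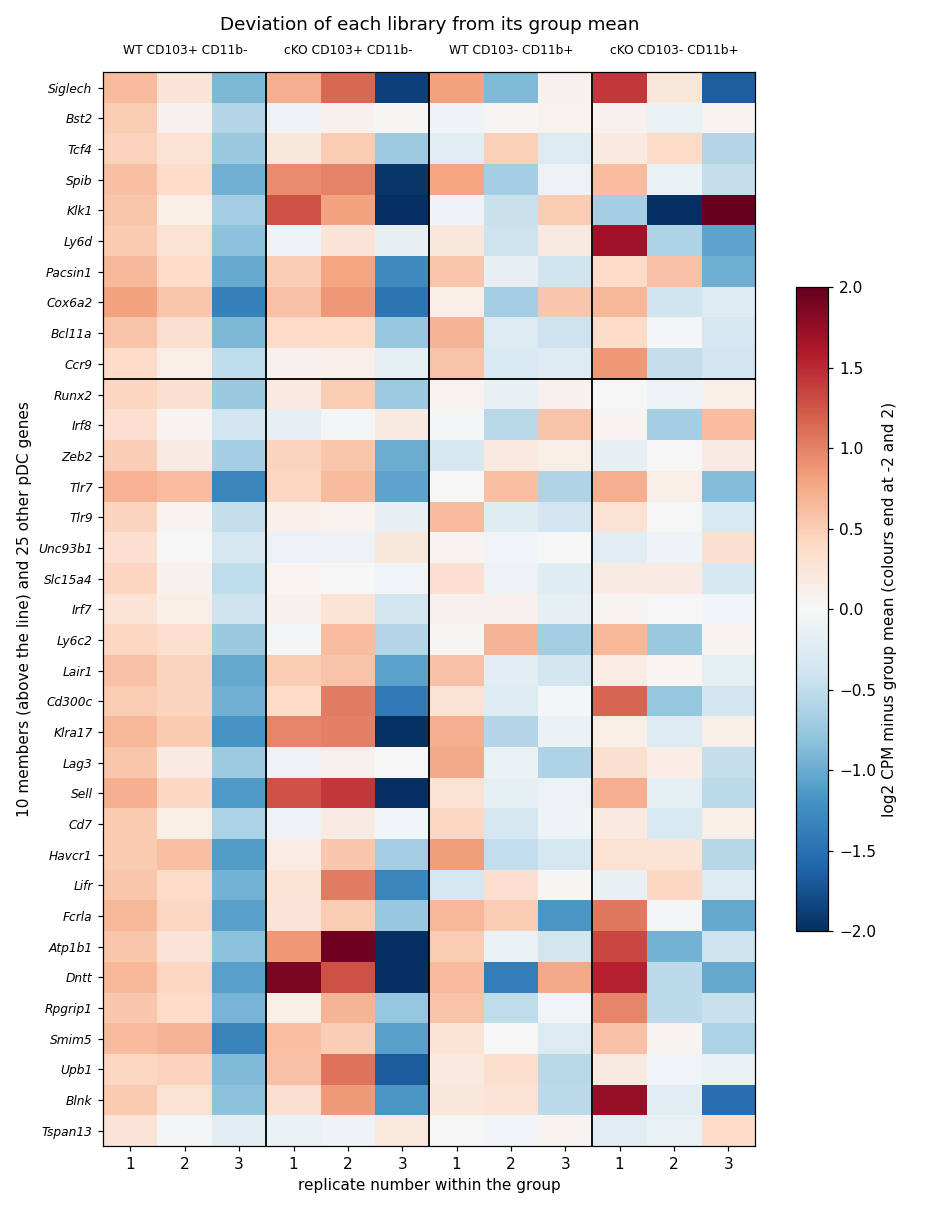
Log2 CPM of each library minus the mean of its group (colour) for the 10 pDC genes (above the line) and 25 other pDC genes (below it), with the 12 libraries as columns. Replicate 3 of WT CD103+CD11b- DCs is the lowest of its group for 10 of 10 and 25 of 25 genes, and replicate 3 of cKO CD103+CD11b- DCs for 9 of 10 and 20 of 25.

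Most of the 10 genes varied together within groups. Over the 45 pairs, the correlation of the deviations from the group means over the 12 libraries had a median of 0.61, ran from -0.11 to 0.91 and was above 0 for 43. The highest were those of *Siglech* with *Spib* and of *Spib* with *Cox6a2*, both 0.91, and the lowest was that of *Klk1* with *Ly6d*. *Klk1* stood apart, with correlations of -0.11 to 0.47 with the other 9. The median correlation with *Siglech* was 0.08 over all genes compared. The points share libraries and depth, so these values are descriptions. Over the 14491 genes with a mean of 10 or more counts, 2.71% had a correlation above 0.8 with *Siglech* within groups, and 8 of the 25 other pDC genes did.

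By the likeness of log2 CPM over the 12 libraries, the 3 genes nearest to *Siglech* were *Cd8b1* (r = 0.986), *Sh3bgr* (0.977) and *Mctp2* (0.974). *Cd8b1* encodes the CD8 beta chain and stood in the T-cell list. It was at 184, 141 and 60 CPM in WT CD103+CD11b- DCs, where *Cd3d*, a T-cell receptor component, was at 0.342, 0.229 and 2.43 CPM. Of the same list, *Tcf7*, *Lck* and *Cd3e* had means of 22.8, 9.83 and 5.56 CPM there, and *Cd3g*, *Bcl11b* and *Trbc2* of 1.1, 2 and 2.12 CPM. The part of T cells in the *Cd8b1* values was not tested. Nearest to *Tcf4* were *Rasgrp2* (0.965), *Peli2* (0.960) and *Lifr* (0.960), to *Spib* were *Lair1* (0.964), *Whrn* (0.925) and *Tespa1* (0.924), and to *Bcl11a* were *Gm48706* (0.954), *Slc29a3* (0.951) and *Tespa1* (0.944). *Ly6d* lay nearest to *Rpgrip1* (0.955), *Ccr9* (0.935) and *Cdh22* (0.933), and *Ccr9* to *Haspin* (0.975), *Mvb12a* (0.963) and *Rab33b* (0.959). Those of *Bst2* were *Ifnar2* (0.957), *Ankle2* (0.922) and *Abhd17b* (0.897), and those of *Klk1* were *Tex2* (0.877), *Gm29017* (0.871) and *Gm48745* (0.869). *Pacsin1* was most like *6720464F23Rik* (0.959), *Vps13a* (0.956) and *Gm38302* (0.955), and *Cox6a2* like *Fam196b* (0.942), *Anapc13* (0.922) and *Trim30d* (0.917).

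Set against *Siglech* in the same library, the genes did not keep 1 ratio between genotypes in CD103+CD11b- DCs. The counts of *Klk1* were 16.8%, 16.4% and 20.6% of those of *Siglech* in WT and 7.83%, 4.07% and 2.17% in cKO libraries, so every cKO library was below every WT library. *Pacsin1* went the other way, with 14.9%, 15.7% and 13.5% in WT and 37.1%, 33.9% and 65.2% in cKO libraries, and so did *Cox6a2*, with 7.22%, 7.79% and 4.46% in WT and 17.5%, 15.8% and 23.9% in cKO libraries. *Spib* was at 32%, 34.9% and 31.3% in WT and at 29.1%, 22.1% and 21.7% in cKO libraries. In WT libraries *Bcl11a* stayed close to *Siglech*, at 87.9%, 95.8% and 92.3%, and in cKO libraries it was at 126%, 90.7% and 346%, the last with 46 counts of *Siglech*. The ratio of *Ccr9* was 110% to 172% in WT and 148% to 1009% in cKO libraries, which overlap. The ratios carry the counting error of *Siglech*, and since other cells express several of these genes too, they are not ratios within pDCs alone.

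**Figure D5:**
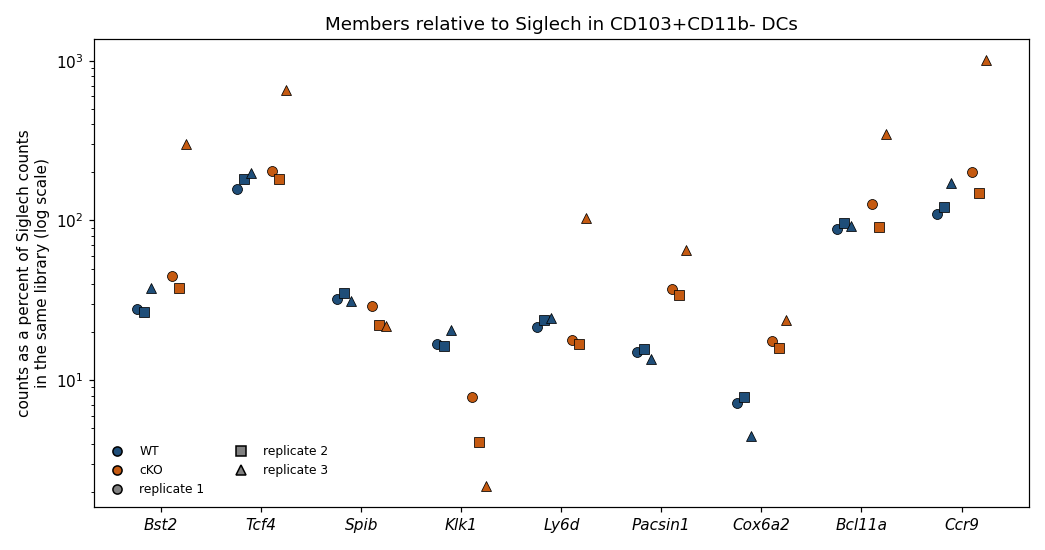
Counts of 9 pDC genes as a percent of the *Siglech* counts in the same library (log axis) for the 3 WT and 3 cKO libraries of CD103+CD11b- DCs, where symbols mark the replicate number. *Klk1* lies at 16.4% to 20.6% in WT and at 2.17% to 7.83% in cKO libraries, and *Pacsin1* at 13.5% to 15.7% in WT and at 33.9% to 65.2% in cKO libraries.

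The 25 other pDC genes were tested with edgeR's quasi-likelihood test. Since earlier results were known when they were listed, their counts are no independent support. In CD103+CD11b- DCs 2 of the 25 fell in cKO mice, where 1.02% of all genes were called: *Zeb2*, a repressor needed for pDC formation, from 318, 254 and 142 to 70.3, 75.7 and 25.4 CPM (log2 fold change -2.04 ± 0.38, SE, adjusted p = 0.0344), and *Cd7*, a surface protein of lymphoid cells and pDCs, from 62.6, 46.9 and 28 to 9.1, 11 and 9.39 CPM (-2.21 ± 0.31, adjusted p = 0.00888). The groups of both genes were apart. Of the 25, 21 had a log2 fold change below 0, with a median of -1.97, and 15 had all 3 cKO libraries below all 3 WT libraries. The list holds genes that this subset also uses, such as *Irf8*, at 1102, 910 and 668 CPM in WT and 975, 1074 and 1230 CPM in cKO mice, and *Tlr9* and *Unc93b1*, whose log2 fold changes were 0.18 ± 0.29 and 0.19 ± 0.19. The count of called genes was 0 without replicate 1 of the cKO libraries, 1 without replicate 1 or replicate 2 of the WT libraries, without replicate 2 of the cKO libraries or without replicate 1 or replicate 2 of the cKO CD103-CD11b+ libraries, and 8 without replicate 3 of the WT libraries. It was 11 with DESeq2 (3.20% of all genes) and 9 with the likelihood ratio test (2.91%).

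In CD103-CD11b+ DCs 0 of the 25 passed between the genotypes by edgeR's quasi-likelihood test, with 7 at an unadjusted p under 0.05 (17.4% of all genes), 2 by DESeq2 (5.54%) and 2 by the likelihood ratio test (5.12%). The difference of the cKO effects was above 0 for all 25 and passed for 0, with 11 at an unadjusted p under 0.05 (11.1% of all genes), 5 by DESeq2 (2.45%), 5 by the likelihood ratio test (2.01%) and 5 with the replicate block within genotype (1.59%). In WT mice 9 of the 25 were lower in CD103-CD11b+ than in CD103+CD11b- DCs and 0 higher, where 18.8% of all genes were called in either direction and 7.00% lower. They included *Irf8*, a factor of cDC1s and pDCs (-2.20 ± 0.35, adjusted p = 0.00246), the RNA sensor *Tlr7* (-2.87 ± 0.63, adjusted p = 0.0122), *Rpgrip1* (-3.07 ± 0.55, adjusted p = 0.0045), *Havcr1* (-2.78 ± 0.55, adjusted p = 0.00782) and *Fcrla* (-2.88 ± 0.66, adjusted p = 0.0148). *Dntt*, the DNA polymerase of lymphoid precursors, was at 52, 43.5 and 15.2 against 1.57, 0 and 1.75 CPM (adjusted p = 0.0215). The count was 4 without replicate 1, 5 without replicate 2 and 14 without replicate 3 of the WT CD103+CD11b- libraries.

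In cKO mice, 6 of the 25 were higher and 1 lower in CD103-CD11b+ than in CD103+CD11b- DCs, where 16.1% of all genes were called. *Zeb2* was at 386, 432 and 486 CPM in the former (log2 fold change 2.91 ± 0.39, adjusted p = 0.000497), *Runx2*, the Runx factor of pDC egress from bone marrow, at 300, 279 and 323 against 129, 160 and 68 CPM (1.33 ± 0.32, adjusted p = 0.0164), and *Cd7*, *Slc15a4* and *Lifr* were higher by 0.88 to 1.73 on the log2 scale. *Irf8* was the gene that was lower (-2.13 ± 0.35, adjusted p = 0.00171). All p are from edgeR's quasi-likelihood test. The count of 7 became 3 without replicate 1 or replicate 3 of the cKO CD103+CD11b- libraries and 4 without replicate 1 or replicate 2 of the cKO CD103-CD11b+ libraries or without replicate 2 of the WT CD103+CD11b- libraries. Of the 6 partners and antagonists of E proteins, 3 rose in CD103-CD11b+ against CD103+CD11b- DCs of WT mice (18.8% of all genes called), *Tcf3* (0.47 ± 0.14, adjusted p = 0.0398), *Id1* (3.32 ± 1.02, adjusted p = 0.0443) and *Id3* (3.14 ± 0.93, adjusted p = 0.038), while between the genotypes edgeR's quasi-likelihood test called 0 in CD103+CD11b- DCs, with 1 at an unadjusted p under 0.05 and 0 by DESeq2 or the likelihood ratio test, and 0 in CD103-CD11b+ DCs, with 2 at an unadjusted p under 0.05 and 1, *Id2*, by each of the other tests. *Id2*, the antagonist of E2-2, was at 224, 183 and 131 CPM in WT and 213, 224 and 254 CPM in cKO CD103+CD11b- DCs. In CD103-CD11b+ DCs it was at 97.5, 121 and 122 CPM in WT and 171, 166 and 254 CPM in cKO mice, higher in all 3 cKO libraries (log2 fold change 0.79 ± 0.21, SE, adjusted p = 0.0883 by edgeR's quasi-likelihood test).

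Markers of other cells moved beside these genes in some of the groups. In CD103+CD11b- DCs, where the 10 genes were lower in cKO mice, 3 of 7 cDC2 genes fell by edgeR's test, which called 1.02% of all genes: *Sirpa* (-2.74 ± 0.53, adjusted p = 0.042), *Irf4* (-1.78 ± 0.30, adjusted p = 0.0241) and *Cd209a* (-2.80 ± 0.56, adjusted p = 0.047), all of which pDCs or cDC2s can express. Of the 7, 2 had a log2 fold change above 0. *Itgam*, which encodes CD11b, was higher in all 3 cKO than in all 3 WT libraries, at 5.99 to 11 against 3.66 to 4.79 CPM. The summed level of the 7 was 523 to 704 CPM in WT and 190 to 293 CPM in cKO libraries, and none was at 0 in a whole group. Of the 6 cDC1 genes 5 had all 3 cKO libraries above all 3 WT libraries, with a median log2 fold change of 0.37 and a summed level of 2192 to 2848 CPM in WT and 3009 to 3508 CPM in cKO libraries. The quasi-likelihood test called 0 of these 6, with 2 at an unadjusted p under 0.05, and DESeq2 and the likelihood ratio test called 1, *Cadm1*. Of 8 epithelial genes *Epcam* fell (-1.88 ± 0.37, adjusted p = 0.0432), while 5 had a log2 fold change above 0 and the median of the 8 was 0.69. *Vil1*, *Krt20* and *Fabp2*, at a mean of 7.01, 2.23 and 5.94 CPM in cKO libraries, were above WT in all 3 of them and did not pass. For *Krt20* the highest WT library and the lowest cKO library each had 1 count, and 1 cKO library at 5.86 CPM made up most of the mean. The summed levels of 6 macrophage genes (12.6 to 49.1 CPM), 5 plasma cell genes (81.9 to 370 CPM) and 10 B-cell genes (33.6 to 75.5 CPM) overlapped between the genotypes in this subset, and of these 21 genes edgeR's quasi-likelihood test, DESeq2 and the likelihood ratio test each called 0, with 1 at an unadjusted p under 0.05. The 8 T-cell genes summed to 127 to 213 CPM in WT and 55.5 to 75.7 CPM in cKO libraries. *Cd8b1*, at a mean of 128 in WT and 30.2 CPM in cKO mice, and *Lck*, at 9.83 and 5.01 CPM, were lower in all 3 cKO than in all 3 WT libraries. In CD103-CD11b+ DCs the macrophage gene *Adgre1* rose in cKO mice (1.93 ± 0.38, adjusted p = 0.0336) and *Itgae*, which encodes CD103, fell (-1.89 ± 0.36, adjusted p = 0.0301), by edgeR's test, which called 1.61% of all genes. Neither list moved as a whole with these genes. Of the 6 macrophage genes 3 had a log2 fold change above 0 and 3 below, with a median of -0.05. Of the 6 cDC1 genes, *Itgae* among them, 5 were above 0. The part of these cells in the values of the 10 genes was not tested.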

How the data were processed

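RNA of sorted small intestine DCs was sequenced by a random-primed total RNA method adapted from single-cell RNA-seq. The authors trimmed the reads (Trim Galore), mapped them to mm10 with STAR 2.7, removed reads of low mapping quality (MAPQ under 5) and duplicates, and counted them on Ensembl genes with htseq-count without strand. They deposited raw counts per gene, 1 table per sample. The counter's 5 summary lines, 61.2% to 67.3% of a library's reads, were left out here.

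Groups were taken from the labels, which give genotype and subset. The 10 genes and all gene lists were chosen with earlier results of these data known. Counts were normalized by TMM and fitted in R 4.3.3 with edgeR 4.0.16 and limma 3.58.1 (quasi-likelihood test, 4 group means in 1 model), over the 20580 genes that reached 5 counts in a sample, with Benjamini-Hochberg adjustment over all of them. Correlations used log2 CPM with a prior count of 2. All 10 genes are named with their values. Of the other pDC genes and E protein partners, those called are named, at most 6 per list and comparison by p. The same rule was set for the lists of other cell types, but of these called genes are named for cKO against WT and not between the subsets. A few others whose levels bear on a result were chosen after their values were seen. Some genes of these lists are not reported here by name. Gene positions came from GENCODE M21 (GRCm38), of which 53706 of 53801 identifiers were matched, and promoter windows from RefSeq (GRCm38.p6). The procedure was tested on simulated data.

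All 4 groups carry replicate numbers 1 to 3, and what the numbers share is not given in the sources used here. Same-numbered cKO libraries of the subsets deviated together (r = 0.112, 0.321 and 0.354 for replicates 1, 2 and 3 over all genes), so the numbers were taken to pair them. In the other comparisons at least 1 pair had an r of 0.1 or less. Between the WT subsets the r were 0.357, -0.0846 and 0.352. The limit of 0.1 was set here, so the pairing of the cKO libraries is an assumption. Replicate 3 was also the shallowest library of each cKO group. Fits given without a block, those between the cKO subsets among them, do not use the pairing. Alternatives were other filters, RLE normalization, DESeq2 1.42.0, a replicate block, fits to 6 samples, edgeR's likelihood ratio test, another prior count, leaving out each library, and leaving out replicate 3 of every group. Counting intervals and floors cover counting error only, and the replicates were different mice by the study's methods.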

Additional observations from a re-analysis of the deposited data

Results flagged for a closer look

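In the lists of other cell types, 2 genes had cKO effects that differed between the subsets by edgeR's quasi-likelihood test of the interaction with Benjamini-Hochberg adjustment. The log2 difference, the effect in CD103-CD11b+ minus that in CD103+CD11b- DCs, was 2.0 ± 0.38 (SE, adjusted p = 0.0474) for the B-cell gene *Cd22*, which was higher in all 3 cKO than in all 3 WT CD103-CD11b+ libraries (136, 116 and 79 against 26.2, 34.3 and 22.4 CPM). It was 4.57 ± 0.65 (SE, adjusted p = 0.0134) for *Cdh17* of the epithelial list, at 104, 90.9 and 46.9 CPM in cKO and 6.85, 3 and 4.07 CPM in WT CD103-CD11b+ libraries. Leaving out each of the 12 libraries in turn, *Cd22* was called in 1 of the 12 fits, that without replicate 3 of the cKO CD103-CD11b+ libraries, and *Cdh17* in 11, all but that without replicate 1 of the cKO CD103+CD11b- libraries.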

How the results depend on the processing

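Of 1060 values that the log2 fold changes of the 10 genes took under alternatives, 1046 were within 1 SD of replicates of the value given and 14 were beyond it. No called value changed its sign, while 24 of uncalled ones did, in 9 of the 50 differences, among them *Klk1* between the subsets of cKO mice (-3.14 without replicate 3 of the cKO CD103-CD11b+ libraries). The cause was not tested for any change. In the order cKO against WT in CD103+CD11b- DCs, the same in CD103-CD11b+ DCs, the difference of these effects and the subsets in cKO mice, DESeq2 called 4, 1, 2 and 3 of the 10 genes, the likelihood ratio test 3, 1, 2 and 2, and the replicate block 3, 2, 1 and 4. The block also called more of all genes (2.54%, 4.13%, 1.60% and 21% against 1.02%, 1.61%, 0.651% and 16.1%), as did DESeq2 (20%) and the likelihood ratio test (20.9%) for the subsets in cKO mice. The replicate block within genotype called 1 for the difference of the effects (1.59% of all genes) and 5 for the subsets in cKO mice (21.5%). With no filter 1 was called in CD103-CD11b+ DCs (1.21% of all genes). Without replicate 3 of every group 2, 1 and 3 were called for the genotypes in each subset and the subsets in cKO mice (0.976%, 0.946% and 15.5% of all genes), and 8 for the subsets in WT mice (19.4%).

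Of the other pDC genes, in the first 3 of these comparisons, DESeq2 called 11, 2 and 5 (3.20%, 5.54% and 2.45% of all genes) and the likelihood ratio test 9, 2 and 5 (2.91%, 5.12% and 2.01%). The replicate block called 11, 2 and 6 (2.54%, 4.13% and 1.60%), and the libraries without replicate 3 of every group 8, 1 and 3 (0.976%, 0.946% and 0.219%). With no filter 5 were called in CD103+CD11b- DCs (0.984% of all genes) and 3 for the difference of the effects (0.630%). With a minimum of 5 counts in every sample 1 was called for that difference (1.16%), and with a fit to the 6 samples 1 in CD103+CD11b- DCs (1.11%). For the difference of the effects the replicate block within genotype called 5 (1.59%). For the subsets in WT mice it called 14 (25.2%), as did the fit without replicate 3 of every group (19.4%). Outside the cKO subsets the replicate numbers were not found to pair the samples, and the block changed no other count by over 1.5 times.

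Leaving out each library in turn moved the share of all genes called to 0.224% to 1.18% and 0.594% to 2.54% between the genotypes in CD103+CD11b- and CD103-CD11b+ DCs, 0.141% to 1.03% for the difference of the effects, and 6.88% to 21.3% and 10.4% to 17.7% between the subsets of WT and cKO mice. In the same fits the counts of the 10 genes ran from 0 to 2 and from 0 to 1 between the genotypes in CD103+CD11b- and CD103-CD11b+ DCs, and from 2 to 6 and from 1 to 2 between the subsets of WT and cKO mice. Those of the other pDC genes ran from 0 to 8 in CD103+CD11b- DCs, from 0 to 3 for the difference of the effects, and from 4 to 14 and from 3 to 7 between the subsets of WT and cKO mice. Genes at few counts, such as *Cox6a2* and *Klk1* in CD103-CD11b+ DCs, have levels that this depth does not fix.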
